A study of Homo sapiens with 31 samples.

Results

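The genes described here are 10 secreted regulators of blood vessel growth: the thrombospondins THBS1 and THBS2, the vascular endothelial growth factor genes VEGFA, VEGFB, VEGFC and PGF, the angiopoietins ANGPT1 and ANGPT2, the angiopoietin-like gene ANGPTL4, and FGF2. They were chosen by name, as genes through which metronomic cyclophosphamide has been proposed to act. Each was read by 1 probe set annotated to that symbol alone, so all 10 of 10 were measured, among 17314 genes in all. Expression was measured on 31 arrays, and every value is a deposited log2 expression level made with RMA, which subtracts background, equalises the distributions of the arrays and condenses each probe set to a single value. The material was RNA of tumours of PC3, a human prostate carcinoma cell line, grown as xenografts, that is, in host animals. There were 4 lines. Clones D4 and D3 had been passaged in animals and re-isolated, and are labelled resistant to cyclophosphamide (CPA), an alkylating drug. Clone A3 had been passaged and re-isolated too and is labelled sensitive. The parental line, called wt, was not passaged in animals and is labelled sensitive. Every line was grown to tumours with a mean volume of 30 mm3, after which 1 group per line received 120 mg/kg CPA intraperitoneally and the other served as control. Of the resulting 8 groups 7 held 4 arrays and A3 control held 3, because the submitters left out 1 array of the planned 32 as an outlier. Each passaged line is a single clone, so a difference between lines cannot be told apart from a difference between clones, whatever their sensitivity. The labels do not say outright that replicate arrays come from separate animals, and all p-values rest on the spread seen among these arrays, whatever its source.

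Vessel growth is set by a balance of factors that start it and factors that hold it back. VEGFA binds the receptor KDR on endothelial cells and drives their division and migration, VEGFB and PGF bind the receptor FLT1, and VEGFC acts mainly on lymphatic endothelium through FLT4. ANGPT1 activates the endothelial receptor TEK and steadies vessels, while ANGPT2 can oppose it at the same receptor. THBS1 and THBS2 are large matrix glycoproteins that restrain endothelial cells through the receptors CD36 and CD47, FGF2 is a heparin-binding growth factor, and ANGPTL4 inhibits lipoprotein lipase and is induced by low oxygen, as VEGFA is. Metronomic dosing is the frequent giving of low doses without long breaks. It has been proposed to act on tumour vessels, and THBS1 has been named as a mediator. The labels give the CPA dose but not its schedule or the time from dosing to harvest. Whether the treated tumours received metronomic dosing is therefore not known, and the proposed role of THBS1 in it was not tested.

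The sequence just upstream of the transcription start is shown for 5 of the 10 members. They are THBS1, the proposed mediator, THBS2 and PGF, both higher in A3 than in wt, and ANGPTL4 and VEGFC. The last 2 were each called lower than wt in some, but not all, comparisons of the passaged clones. Each is the 250 bases before the start, 5′ to 3′ on the gene's strand, from RefSeq on GRCh38.p14. Capitals mark the matches to 4 motifs searched on both strands. The core of a hypoxia response element was searched as ACGTG, and in its other form as GCGTG. The GC box was searched as GGGCGG and the TATA box as TATAAA. The first 2 share 4 letters but cannot match at the same place.
THBS1 (chr15:39580829-39581078, + strand): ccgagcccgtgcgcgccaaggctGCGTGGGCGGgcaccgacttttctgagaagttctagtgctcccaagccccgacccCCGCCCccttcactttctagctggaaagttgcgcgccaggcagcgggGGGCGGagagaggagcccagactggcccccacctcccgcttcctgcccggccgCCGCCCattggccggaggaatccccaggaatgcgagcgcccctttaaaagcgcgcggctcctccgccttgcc
THBS2 (chr6:169253847-169254096, - strand): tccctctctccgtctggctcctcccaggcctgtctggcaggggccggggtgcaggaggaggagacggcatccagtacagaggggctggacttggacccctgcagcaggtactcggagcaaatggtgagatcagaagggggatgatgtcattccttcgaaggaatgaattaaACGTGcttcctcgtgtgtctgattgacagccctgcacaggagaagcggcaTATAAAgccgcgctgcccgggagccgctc
PGF (chr14:74955765-74956014, - strand): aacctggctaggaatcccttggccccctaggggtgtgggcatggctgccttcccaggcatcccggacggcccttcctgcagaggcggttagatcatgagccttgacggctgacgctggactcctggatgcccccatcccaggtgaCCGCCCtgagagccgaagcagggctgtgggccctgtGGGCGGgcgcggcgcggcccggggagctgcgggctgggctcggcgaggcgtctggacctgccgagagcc
ANGPTL4 (chr19:8363905-8364154, + strand): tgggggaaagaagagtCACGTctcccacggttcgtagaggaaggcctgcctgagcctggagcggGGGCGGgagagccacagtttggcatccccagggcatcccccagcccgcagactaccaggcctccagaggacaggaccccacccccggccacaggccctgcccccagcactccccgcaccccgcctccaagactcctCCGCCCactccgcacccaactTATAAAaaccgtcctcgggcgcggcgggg
VEGFC (chr4:176792923-176793172, - strand): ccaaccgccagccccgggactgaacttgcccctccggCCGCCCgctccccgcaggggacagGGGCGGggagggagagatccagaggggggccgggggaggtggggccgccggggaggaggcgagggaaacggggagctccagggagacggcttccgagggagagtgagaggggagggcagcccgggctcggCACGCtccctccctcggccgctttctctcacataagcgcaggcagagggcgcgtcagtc
A TATA box starts 29 bases before the start of ANGPTL4 and 29 bases before that of THBS2, and 11.1% of 27305 such windows over all genes hold one. ACGTG lies 234 bases before ANGPTL4, on the opposite strand, and 79 bases before THBS2. GCGTG lies 227 bases before THBS1, where it overlaps a GC box by a base, and 59 bases before VEGFC, on the opposite strand. Either form of the hypoxia core is found in 43.1% of all windows. THBS1 holds 4 GC boxes, ANGPTL4, VEGFC and PGF hold 2 each and THBS2 none, while 42.3% of all windows hold at least 1. These matches describe the letters only, and the values of the genes follow.

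The span of the 8 group means differed between the genes. It was 1.31 on the log2 scale for ANGPT1, 0.80 for VEGFA and 0.78 for ANGPTL4, between 0.42 and 0.49 for THBS1, VEGFC, PGF and THBS2, and 0.36, 0.30 and 0.28 for VEGFB, ANGPT2 and FGF2. The median over all genes was 0.32. Of all genes, 99.3% had a smaller span than ANGPT1, 95.6% than VEGFA, 95.3% than ANGPTL4, 81.7% than THBS2, 43.8% than ANGPT2 and 36.4% than FGF2. Put in order of their means, groups next to each other always overlapped: in 70 of the 70 neighbouring pairs of the 10 genes the ranges of the arrays met. ANGPT1 and ANGPT2 had means over all arrays of 5.77 and 5.26, which put them among the dimmest 30% of genes. The other 8 members lay above that limit of 6.01. RMA values carry no detection call, so a low level is not shown to be absence.

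**Figure D1:**
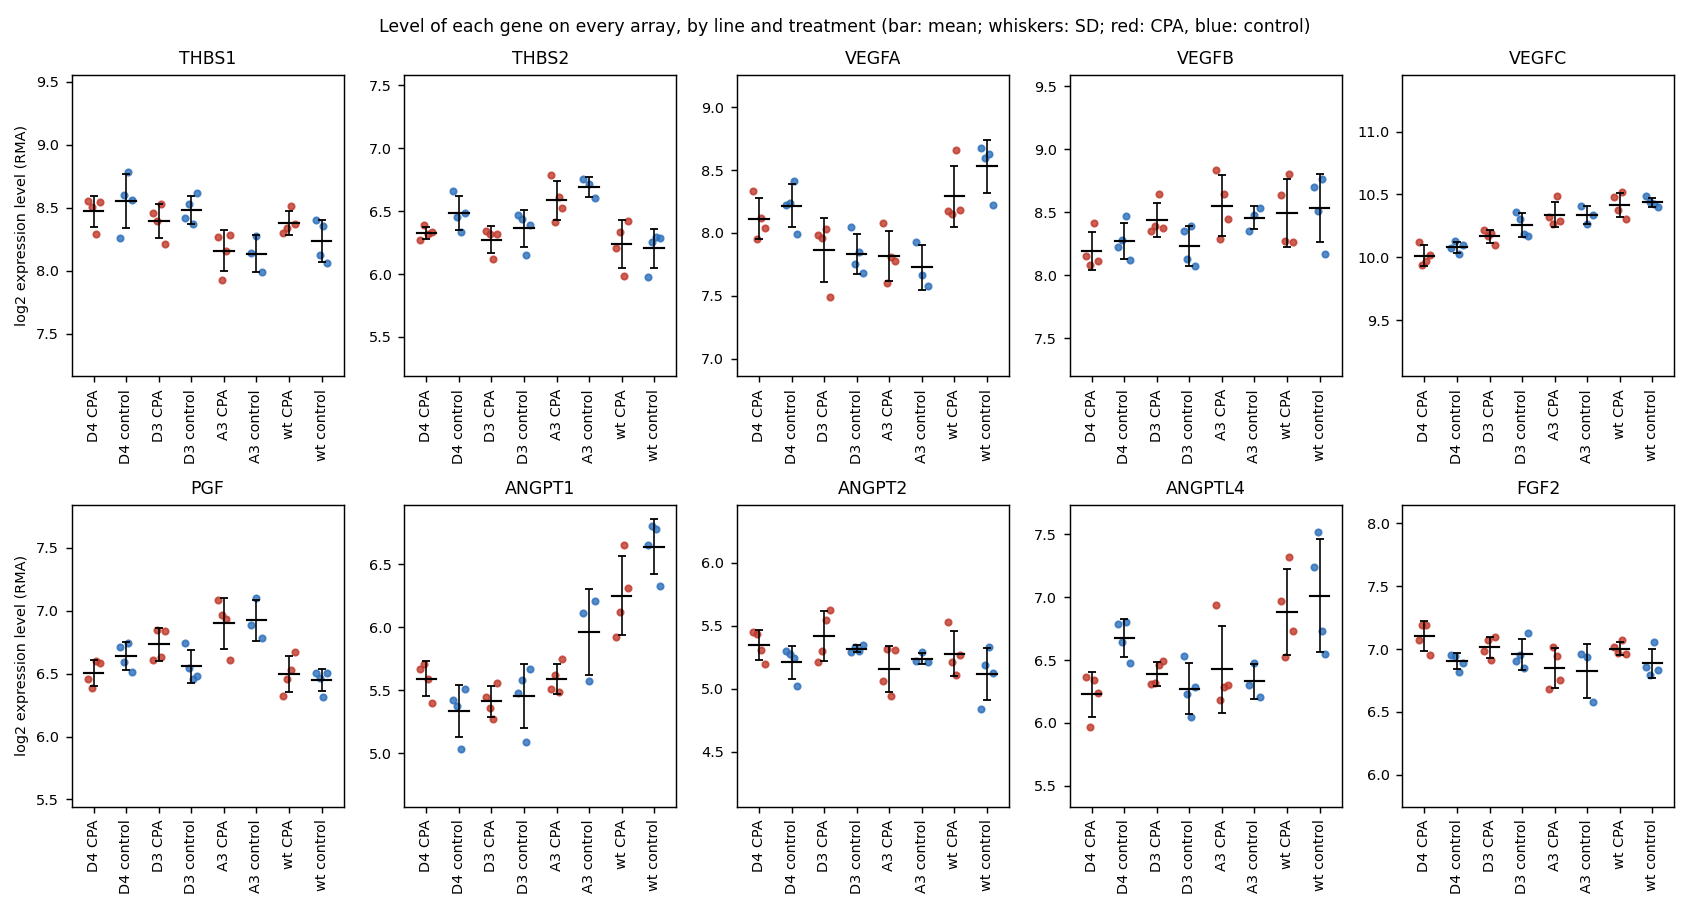
Log2 expression level (RMA, vertical axes of equal height) of the 10 genes on each of the 31 arrays, in the 8 groups of line and treatment. Dots are arrays, bars means, whiskers SD, red CPA and blue control. The group means of ANGPT1, VEGFA and ANGPTL4 are highest in wt and those of THBS2 and PGF in A3. Treated and control dots of a line overlap for every gene except ANGPTL4 in D4.

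No change with CPA was called for any of the 10 genes in any line. With limma, at an adjusted p under 0.05, 0 of 10 were called in D4, D3, A3 or wt, where 1.03%, 0.231%, 0.352% and 0.0462% of all 17314 genes were called. At an unadjusted p under 0.05 there were 2 in D4, 0 in D3, 1 in A3 and 1 in wt, where 21.9%, 12.8%, 6.68% and 3.38% of all genes were. THBS1 read 8.29, 8.50, 8.54 and 8.55 in D4 CPA tumours, against 8.26, 8.56, 8.60 and 8.78 in D4 control tumours. In D3 it read 8.21, 8.39, 8.46 and 8.53 with CPA, against 8.37, 8.42, 8.53 and 8.62 in controls. The arrays of the treated and control tumours overlapped in both resistant clones. In A3 it read 7.93, 8.16, 8.27 and 8.29 with CPA, against 7.99, 8.14 and 8.28 in controls. In wt it read 8.30, 8.34, 8.37 and 8.52 with CPA, against 8.06, 8.12, 8.35 and 8.40 in controls. These overlapped as well. The log2 differences for THBS1 were -0.08 ± 0.10 SE in D4, -0.09 ± 0.10 SE in D3, 0.02 ± 0.11 SE in A3 and 0.15 ± 0.10 SE in wt (adjusted p 0.667, 0.725, 0.997 and 1.0 in limma). Their 95% intervals were -0.29 to 0.13 in D4, -0.30 to 0.13 in D3, -0.20 to 0.25 in A3 and -0.07 to 0.36 in wt. Averaged over the 4 lines, a comparison added after the single lines had been seen, the CPA difference was 0.00 ± 0.05 SE for THBS1 (95% interval -0.11 to 0.11, adjusted p 0.998) and -0.08 ± 0.05 SE for THBS2 (95% interval -0.18 to 0.02, adjusted p 0.616). In this average 0 of 10 genes were called, against 2.33% of all genes, and 1 had an unadjusted p under 0.05, against 11.2% of all genes.

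The widest CPA differences among the 10 genes were those of ANGPTL4 and ANGPT1, and neither passed the test. ANGPTL4 read 5.97, 6.24, 6.34 and 6.36 in D4 CPA tumours, against 6.47, 6.65, 6.78 and 6.80 in D4 control tumours. All 4 treated arrays lay below all 4 controls, which made ANGPTL4 in D4 the only case without overlap among the 10 genes in the 4 lines. This was the case in one direction or the other for 9.97% of all genes in D4. The ANGPTL4 difference was -0.45 ± 0.17 SE (adjusted p 0.141, limma). ANGPT1, the TEK agonist, differed by -0.39 ± 0.15 SE in wt (adjusted p 1.0) and by -0.38 ± 0.16 SE in A3 (adjusted p 0.624), while in the resistant clones it differed by 0.26 ± 0.15 SE in D4 (adjusted p 0.296) and by -0.04 ± 0.15 SE in D3 (adjusted p 0.914). The test of that contrast itself, the mean CPA difference of D4 and D3 minus that of A3 and wt, gave 0.49 ± 0.15 SE for ANGPT1, with an unadjusted p of 0.00264 and an adjusted p of 0.999 in limma. None of the 10 genes was called for it, against 0.00578% of all genes (a single gene), and ANGPT1 was the only member with an unadjusted p under 0.05, which 2.34% of all genes had. Set against the CPA difference of wt, those of D4, D3 and A3 also differed for 0 of 10 members, and the limma test called none of the 17314 genes in these comparisons. At an unadjusted p under 0.05 there was 1 member for D4, ANGPT1, and 0 for D3 and for A3, against 7.33%, 6.61% and 3.20% of all genes. FGF2 was higher with CPA in the means of all 4 lines, by 0.20 in D4, 0.06 in D3, 0.02 in A3 and 0.12 in wt. Averaged over lines this was 0.10 ± 0.05 SE with an unadjusted p of 0.0339, and it did not pass at an adjusted p of 0.37 (limma). For VEGFA the 4 differences were -0.10, 0.03, 0.09 and -0.24 in D4, D3, A3 and wt, and for VEGFC they were -0.07, -0.09, 0.00 and -0.02. The average over lines was -0.05 ± 0.07 SE for VEGFA (95% interval -0.19 to 0.08) and -0.04 ± 0.03 SE for VEGFC (95% interval -0.11 to 0.03).

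**Figure D2:**
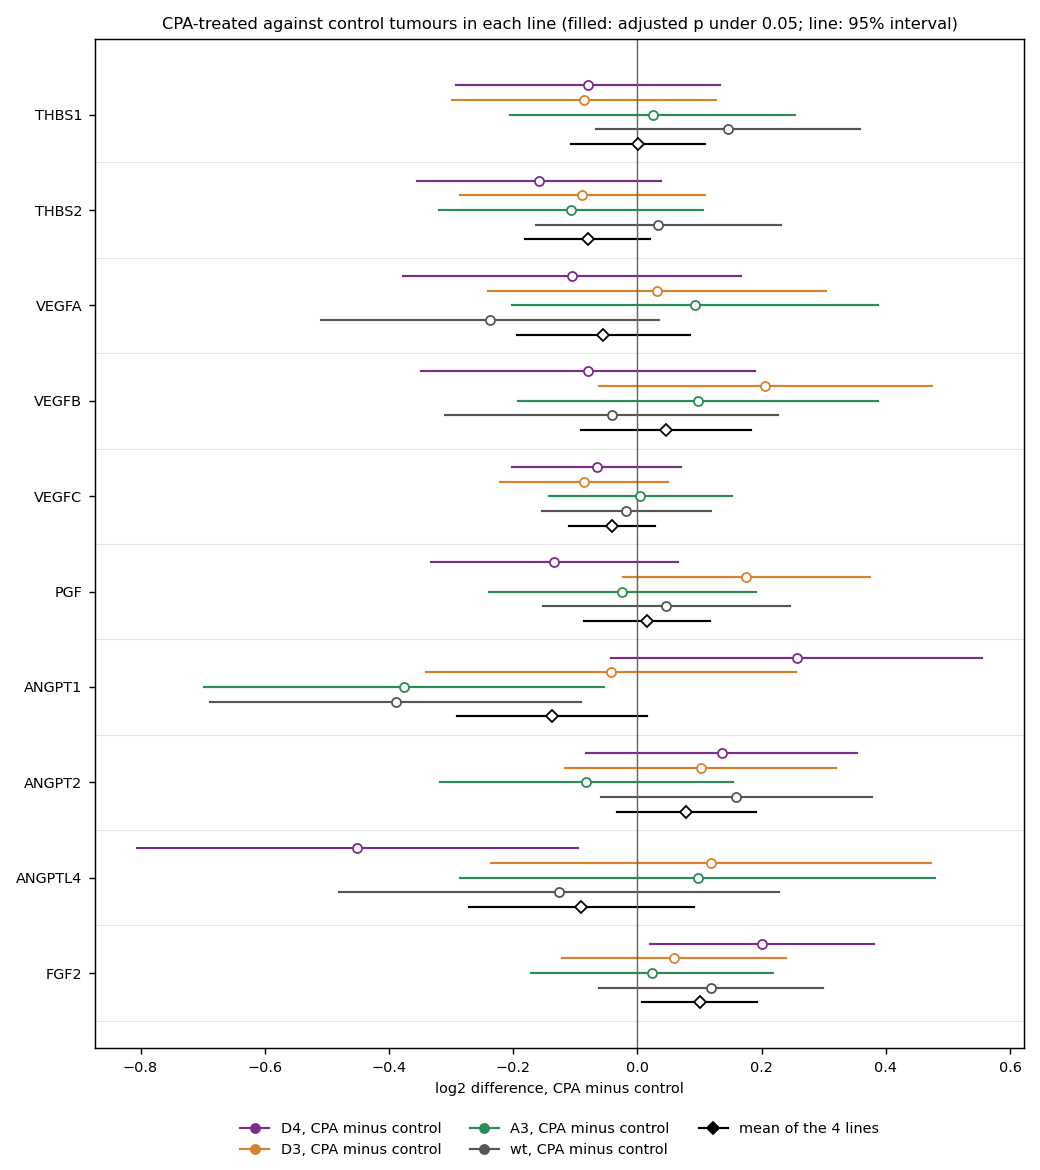
Log2 difference between CPA-treated and control tumours for the 10 genes (horizontal axis), in D4, D3, A3 and wt and averaged over the 4 lines. Points are estimates, lines 95% intervals, and a filled point would be an adjusted p under 0.05. No point is filled. ANGPTL4 in D4 (-0.45) and ANGPT1 in wt (-0.39) and A3 (-0.38) lie farthest from 0.

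The lines differed from each other in several members, most often the clones from wt. In control tumours D4 differed from wt in 4 of 10 genes, where 20.1% of all genes were called. There were 2 higher, against 9.22% of all genes, and 2 lower, against 10.9%. D3 differed in 3, where 18.1% of all genes were called, and all 3 were lower, against 8.40%. A3 differed in 5, where 18.5% were called, with 2 higher, against 10.1%, and 3 lower, against 8.36%. The CPA-treated tumours are other arrays. In them D4 differed from wt in 3 genes, where 15.1% of all genes were called, and all 3 were lower, against 7.59%. D3 differed in 4, where 16.4% were called, all lower, against 10.1%. A3 differed in 4, where 16.3% were called, with 2 higher, against 6.74%, and 2 lower, against 9.60%. Arrays of the clone and of wt did not overlap for 4 members in D4, 4 in D3 and 5 in A3 control tumours, where this held for 18.4%, 22.1% and 24.2% of all genes, and for 3, 4 and 3 members in treated tumours, where it held for 20.7%, 24.2% and 19.3%. The median difference of the 10 genes from wt in control tumours was -0.12 in D4, -0.06 in D3 and -0.09 in A3, beside medians over all genes of 0.05, 0.01 and 0.04. The 3 comparisons in control tumours share the wt arrays, as do the 3 in treated tumours.

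Set against A3, D4 differed in 4 of the 10 genes in control tumours, where 3.77% of all genes were called. THBS1 and VEGFA were higher, against 1.75% of all genes, and VEGFC and ANGPT1 lower, against 2.02%. In treated tumours D4 differed from A3 in 3, where 12.4% were called. THBS1 was higher, against 7.41% of all genes, and VEGFC and PGF were lower, against 4.97%. The control count for D4 against A3 was 0 without A3 control replicate 4, and A3 control holds only 3 arrays. D3 differed from A3 in 0 of 10 in control tumours, where limma called 2.27% of all genes, and in 0 of 10 in treated tumours, where it called 4.55%. In each treatment 4 of the 10 had an unadjusted p under 0.05, as did 11.5% of all genes in control and 15.4% in treated tumours. Between D4 and D3 control tumours 0 of 10 were called, against 0.323% of all genes, and 3 had an unadjusted p under 0.05, against 9.67% of all genes. Without overlap were 4 members for D4 against A3 in control tumours (9.62% of all genes) and 4 in treated ones (18.4%), 4 for D3 against A3 in control tumours (12.3%) and 2 in treated ones (9.65%), and 1, VEGFC, for D4 against D3 (4.68%). No member was called for both resistant clones against A3. These comparisons share the A3 arrays.

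**Figure D3:**
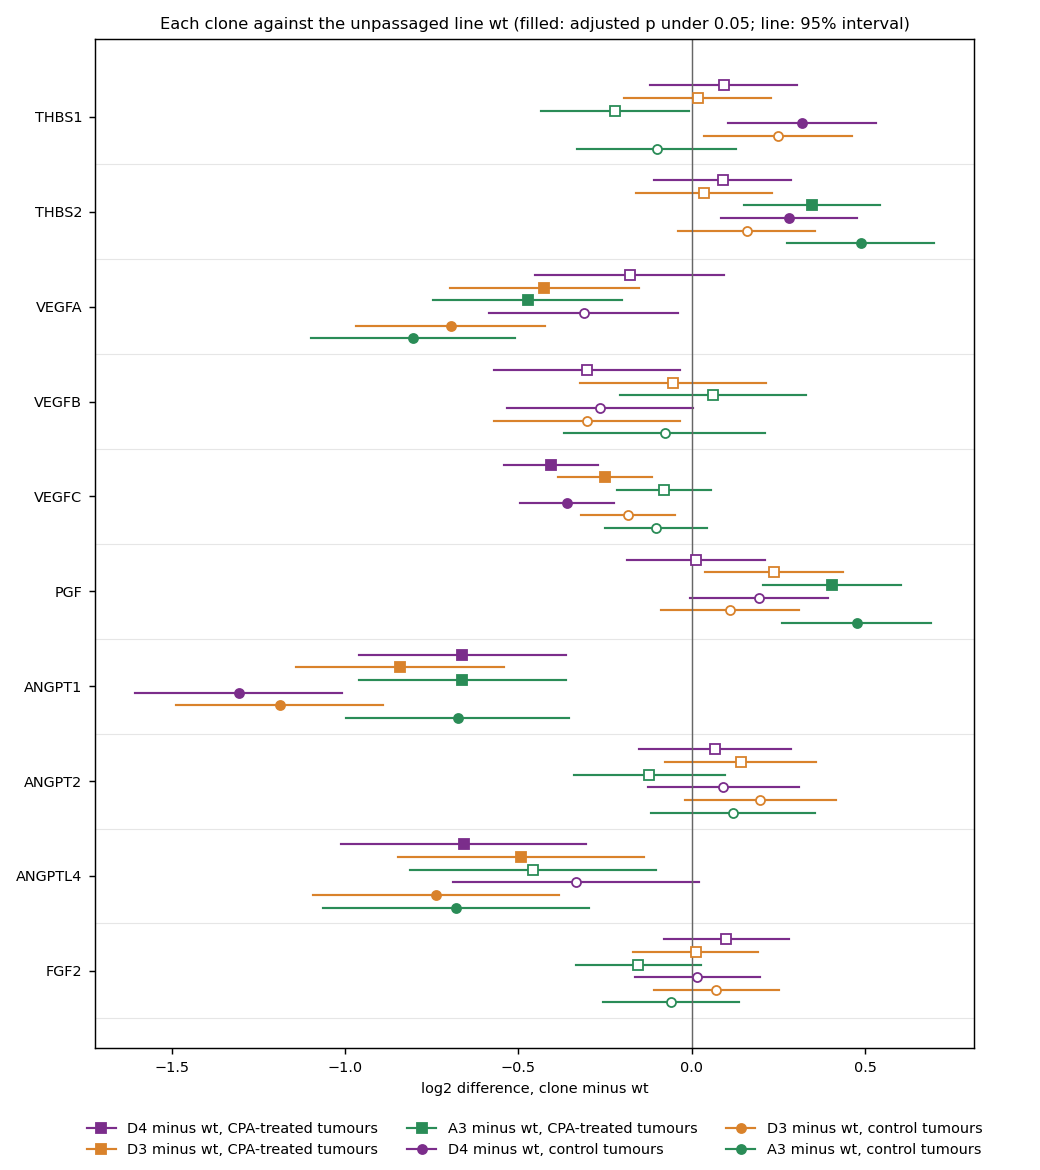
Log2 difference of clones D4, D3 and A3 from wt for the 10 genes (horizontal axis), in CPA-treated tumours (squares) and control tumours (circles). Lines are 95% intervals, and filled points have an adjusted p under 0.05. ANGPT1 is lower than wt in all 6 comparisons, by -0.66 to -1.31, and VEGFA, ANGPTL4 and VEGFC lie left of 0 while THBS2 and PGF lie right of it in all 6.

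Of the inhibitors, THBS2 was higher in A3 than in wt. In control tumours it read 6.60, 6.72 and 6.75 in A3, against 5.98, 6.25, 6.29 and 6.30 in wt. In CPA-treated tumours it read 6.41, 6.52, 6.62 and 6.78 in A3, against 5.99, 6.21, 6.34 and 6.42 in wt. The control arrays of A3 and wt did not overlap, and 1 treated A3 array lay below the highest treated wt array. THBS2 rose by 0.49 ± 0.10 SE in control A3 tumours (1.4-fold, adjusted p 0.00104) and by 0.35 ± 0.10 SE in treated ones (adjusted p 0.0115, limma). The treated difference missed the threshold without wt CPA replicate 3 (adjusted p 0.0812) or without A3 CPA replicate 1 (0.0695). In the resistant clones THBS2 read 6.34, 6.46, 6.49 and 6.66 in D4 control tumours and 6.15, 6.39, 6.44 and 6.47 in D3 control tumours. It was 0.28 ± 0.10 SE above wt in D4 (adjusted p 0.0371) and 0.16 ± 0.10 SE in D3, which did not pass (adjusted p 0.304). Set against A3 in control tumours it differed by -0.21 ± 0.10 SE in D4 and -0.33 ± 0.10 SE in D3. Neither passed (adjusted p 0.353 and 0.102). In treated tumours the differences from A3 were -0.26 in D4 and -0.31 in D3, and neither passed (adjusted p 0.0742 and 0.0599, limma). With 1 array left out, both passed only without A3 CPA replicate 2 (0.0492 and 0.0372). D4 also passed with array weights (0.032). D3 also passed with a further quantile normalization (0.0192) or without the dimmest 30% of genes (0.0401). In treated tumours D4 differed from wt by 0.09 ± 0.10 SE (adjusted p 0.65). The control difference of D4 was called in only 3 of 8 fits that left out 1 array, those without wt control replicate 3 or 4 or D4 control replicate 4, with adjusted p 0.0246 to 0.147 over the 8.

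THBS1 was higher in D4 than in A3. In control tumours it read 8.26, 8.56, 8.60 and 8.78 in D4, against 7.99, 8.14 and 8.28 in A3, with 1 D4 array inside the A3 range. In CPA-treated tumours it read 8.29, 8.50, 8.54 and 8.55 in D4, against 7.93, 8.16, 8.27 and 8.29 in A3, without overlap, though the lowest D4 value and the highest A3 value both round to the same 2 decimals. The difference was 0.42 ± 0.11 SE in control tumours (1.34-fold, adjusted p 0.0294) and 0.31 ± 0.10 SE in treated ones (1.24-fold, adjusted p 0.0454). With 1 array left out, the first passed only without A3 control replicate 2 or D4 control replicate 1 (adjusted p 0.00618 to 0.216 over 7 fits), and the second only without A3 CPA replicate 4 or D4 CPA replicate 4 (0.0238 to 0.168 over 8). Against wt, THBS1 in control tumours was 0.32 ± 0.10 SE higher in D4 (adjusted p 0.029), and it passed only without wt control replicate 1 or 3 or D4 control replicate 1 when 1 array was left out (adjusted p 0.00472 to 0.13 over 8 fits). In treated tumours D4 differed from wt by 0.09 ± 0.10 SE (adjusted p 0.665). D3 differed from A3 by 0.35 ± 0.11 SE in control tumours and 0.24 ± 0.10 SE in treated tumours, and from wt by 0.25 ± 0.10 SE and 0.02 ± 0.10 SE. None of these passed, with adjusted p 0.111, 0.247, 0.103 and 0.927, but with array weights the control differences from A3 (0.46, adjusted p 0.00147) and from wt (0.28, adjusted p 0.0195) did. A3 differed from wt by -0.10 ± 0.11 SE in control tumours (adjusted p 0.627).

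Among the VEGF ligands, VEGFA was lower in A3 and D3 than in wt. In control tumours it read 7.58, 7.67 and 7.93 in A3 and 7.68, 7.76, 7.85 and 8.05 in D3, against 8.22, 8.60, 8.63 and 8.67 in wt. All arrays of both clones lay below the lowest wt array. VEGFA was 1.75-fold lower in A3 (log2 difference -0.80 ± 0.14 SE, adjusted p 0.000146) and 1.62-fold lower in D3 (-0.69 ± 0.13 SE, adjusted p 0.00034, limma). These calls passed in every fit that left out 1 array. In CPA-treated tumours VEGFA read 7.60, 7.77, 7.81 and 8.08 in A3 and 7.49, 7.96, 7.99 and 8.03 in D3, against 8.15, 8.18, 8.18 and 8.66 in wt. Neither clone overlapped wt, and the differences were -0.47 ± 0.13 SE in A3 (adjusted p 0.0127) and -0.43 ± 0.13 SE in D3 (adjusted p 0.0274). Without wt CPA replicate 3, which read highest, neither passed (adjusted p 0.0899 in A3 and 0.152 in D3), nor did A3 without A3 CPA replicate 2 (0.0608) or D3 without D3 CPA replicate 5 (0.151). D4 stood between. VEGFA read 7.99, 8.23, 8.24 and 8.41 in D4 control tumours, and differed from wt by -0.31 ± 0.13 SE, which did not pass (adjusted p 0.0985), although it passed without wt control replicate 4 (adjusted p 0.0323). All 4 D4 arrays lay above the 3 A3 arrays, and the difference from A3 was 0.49 ± 0.14 SE, at an adjusted p of 0.0499 that passed only without A3 control replicate 1 or D4 control replicate 5 when 1 array was left out (0.0406 to 0.266 over 7 fits). In treated tumours D4 and A3 differed by 0.29 ± 0.13 SE (adjusted p 0.142), and D4 and wt by -0.18 ± 0.13 SE (adjusted p 0.454).

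VEGFC, the lymphatic growth factor, was lower in D4, and its arrays agreed within groups more closely than those of any other member (SD within groups 0.08, against 0.12 to 0.27 for the other 9). In control tumours it read 10.02, 10.07, 10.09 and 10.13 in D4 and 10.26, 10.33 and 10.41 in A3, against 10.40, 10.42, 10.44 and 10.49 in wt. In CPA-treated tumours it read 9.94, 9.97, 10.02 and 10.13 in D4 and 10.26, 10.29, 10.32 and 10.48 in A3, against 10.31, 10.38, 10.48 and 10.52 in wt. D4 lay below both other lines without overlap in each treatment. Against wt, VEGFC in D4 was 1.28-fold lower in control tumours (-0.36 ± 0.07 SE, adjusted p 0.00019) and 1.33-fold lower in treated ones (-0.41 ± 0.07 SE, adjusted p 5.4e-05). Against A3 the D4 differences were -0.26 ± 0.07 SE in control tumours (adjusted p 0.039) and -0.33 ± 0.07 SE in treated ones (adjusted p 0.00138). The first of these passed only without A3 control replicate 2 when 1 array was left out (adjusted p 0.0392 to 0.189 over 7 fits), while the second passed in all 8 such fits. In D3 it read 10.17, 10.18, 10.31 and 10.36 in control tumours and 10.10, 10.17, 10.19 and 10.22 in treated ones. The difference from wt was -0.25 ± 0.07 SE in treated tumours (adjusted p 0.00918) and -0.18 ± 0.07 SE in control tumours, which narrowly missed the threshold (adjusted p 0.0531) and passed without D3 control replicate 1 (0.0332). A3 was not called against wt, with -0.10 ± 0.07 SE in control tumours (adjusted p 0.38). D4 and D3 control tumours did not overlap, yet their difference of -0.18 ± 0.07 SE did not pass (adjusted p 0.376).

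PGF, a ligand of FLT1, was higher in A3 than in wt, as THBS2 was. In control tumours it read 6.78, 6.89 and 7.10 in A3, against 6.32, 6.47, 6.50 and 6.51 in wt. In CPA-treated tumours it read 6.61, 6.94, 6.97 and 7.09 in A3, against 6.32, 6.46, 6.53 and 6.67 in wt. The control arrays did not overlap and a single treated A3 array lay inside the wt range. PGF was 1.39-fold higher in A3 in control tumours (0.48 ± 0.11 SE, adjusted p 0.00145) and 1.32-fold higher in treated ones (0.41 ± 0.10 SE, adjusted p 0.00353), and both passed in every fit that left out 1 array. In the resistant clones it read 6.51, 6.59, 6.72 and 6.75 in D4 and 6.46, 6.48, 6.54 and 6.75 in D3 control tumours, all below the A3 control arrays. The differences from A3 were -0.28 ± 0.11 SE in D4 and -0.37 ± 0.11 SE in D3, and neither passed (adjusted p 0.151 and 0.0611), although D3 did without D3 control replicate 1 (0.0432). In treated tumours PGF read 6.39, 6.46, 6.59 and 6.60 in D4, all below the A3 arrays, and the difference from A3 was -0.39 ± 0.10 SE (adjusted p 0.00806). D3 differed from A3 there by -0.17 ± 0.10 SE (adjusted p 0.446). Against wt neither resistant clone was called for PGF, in control tumours (0.19 in D4 and 0.11 in D3) or in treated ones (0.01 and 0.24). VEGFB, also a ligand of FLT1, was called in no comparison of the reported fit. Its group means ran from 8.19 in D4 CPA to 8.55 in A3 CPA tumours, a difference of -0.36 ± 0.13 SE (adjusted p 0.066), which passed without A3 CPA replicate 2 (0.0369) or D4 CPA replicate 4 (0.0362). It also passed with only the groups compared (0.0497), array weights (0.0225), a further quantile normalization (0.0448) or without the dimmest 30% of genes (0.0491), and with array weights the treated difference from wt in D4 did too (0.0493). Its control differences from wt, -0.26 in D4 and -0.30 in D3, passed without wt control replicate 4 (adjusted p 0.0372 and 0.0227).

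ANGPT1 was lower than wt in all 3 clones and in both treatments, and its difference between D4 and wt controls was the widest of any line difference among the 10 genes. In control tumours it read 5.04, 5.38, 5.42 and 5.51 in D4, 5.09, 5.48, 5.58 and 5.67 in D3 and 5.57, 6.12 and 6.21 in A3, against 6.33, 6.65, 6.78 and 6.80 in wt. Every clone array lay below every wt array. The log2 differences from wt were -1.31 ± 0.15 SE in D4 (adjusted p 1.3e-07), -1.19 ± 0.15 SE in D3 (adjusted p 7.4e-07) and -0.68 ± 0.16 SE in A3 (adjusted p 0.00242). The D4 and D3 means of 5.33 and 5.45 lie under 6.01, the limit of the dimmest 30% of genes, and with no detection call they are not shown to be above background, so no fold is given. In CPA-treated tumours it read 5.40, 5.59, 5.67 and 5.71 in D4, 5.28, 5.36, 5.45 and 5.56 in D3 and 5.49, 5.51, 5.62 and 5.75 in A3, against 5.92, 6.12, 6.31 and 6.65 in wt. The clones again lay below wt without overlap. The differences were -0.66 ± 0.15 SE in D4, -0.84 ± 0.15 SE in D3 and -0.66 ± 0.15 SE in A3 (adjusted p 0.00173, 0.000147 and 0.00161). All 6 calls passed in every fit that left out 1 array. In control tumours D4 and A3 differed by -0.63 ± 0.16 SE (adjusted p 0.0189), which did not pass without A3 control replicate 1 (0.116), A3 control replicate 4 (0.172) or D4 control replicate 4 (0.056). D3 differed from A3 by -0.51 ± 0.16 SE, not called at an adjusted p of 0.0907 but called without A3 control replicate 2 (0.0206). In treated tumours D4 and A3 had means of 5.59 and 5.59, and their difference had a 95% interval of -0.30 to 0.30. ANGPT2, which can oppose ANGPT1 at TEK, was called in no comparison. Its group means ran from 5.12 in wt control to 5.42 in D3 CPA tumours. Against wt in control tumours it differed by 0.09 ± 0.11 SE in D4, 0.20 ± 0.11 SE in D3 and 0.12 ± 0.12 SE in A3.

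ANGPTL4 was higher in wt control tumours than in D3 and A3 controls. It read 6.05, 6.23, 6.28 and 6.53 in D3 and 6.21, 6.31 and 6.48 in A3, against 6.55, 6.73, 7.24 and 7.52 in wt, without overlap, and the wt arrays were the most widely spread. In D4 control tumours it read 6.47, 6.65, 6.78 and 6.80, with 3 of 4 arrays inside the wt range. ANGPTL4 was 1.67-fold lower in D3 (-0.74 ± 0.17 SE, adjusted p 0.00269) and 1.6-fold lower in A3 (-0.68 ± 0.19 SE, adjusted p 0.00952). The A3 call was lost without wt control replicate 2 (adjusted p 0.0562) or A3 control replicate 4 (0.0509). D4 differed by -0.33 ± 0.17 SE (adjusted p 0.182), and was called without wt control replicate 4 (0.0494). In CPA-treated tumours ANGPTL4 read 5.97, 6.24, 6.34 and 6.36 in D4, 6.31, 6.32, 6.46 and 6.49 in D3 and 6.19, 6.29, 6.30 and 6.94 in A3, against 6.52, 6.73, 6.97 and 7.32 in wt. D4 and D3 lay below wt and 1 A3 array lay among the wt arrays. The differences from wt were -0.66 ± 0.17 SE in D4 (adjusted p 0.00822, or 0.0614 without wt CPA replicate 3) and -0.49 ± 0.17 SE in D3 (adjusted p 0.0497). The D3 call passed only without wt CPA replicate 2 or 5 when 1 array was left out (0.0263 to 0.215 over 8 fits). A3 differed by -0.46 ± 0.17 SE, not called (adjusted p 0.0705), but called without A3 CPA replicate 1 (0.0137) or wt CPA replicate 2 (0.033).

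FGF2 was called in no comparison of the reported fit. In CPA-treated tumours it read 6.95, 7.07, 7.19 and 7.20 in D4, against 6.68, 6.75, 6.95 and 7.02 in A3, the widest line difference of this gene (0.25 ± 0.09 SE, adjusted p 0.0558), and it passed without A3 CPA replicate 2 (0.0346) or D4 CPA replicate 5 (0.0428). It also passed with a further quantile normalization (0.033), median centring (0.0408) or without the dimmest 30% of genes (0.0392). In control tumours FGF2 differed from wt by 0.02 ± 0.09 SE in D4 (95% interval -0.16 to 0.20), 0.07 ± 0.09 SE in D3 (-0.11 to 0.25) and -0.06 ± 0.10 SE in A3 (-0.26 to 0.13).

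The receptors of these ligands were read on the same arrays. Of 7 measured receptors, KDR, the main VEGFA receptor, was the one that differed most. It averaged 7.80 ± 0.20 in D4, 8.53 ± 0.13 in D3 and 8.35 ± 0.15 in A3 control tumours, against 9.54 ± 0.24 in wt (SD over 4 arrays, 3 for A3). It fell in all 3, with log2 differences of -1.74, -1.01 and -1.19 in D4, D3 and A3 (adjusted p 8.2e-11, 1.5e-06 and 4.0e-07). NRP2, a co-receptor for VEGFC, rose by 0.46 in D4, 0.58 in D3 and 0.48 in A3 (adjusted p 0.000208, 1.1e-05 and 0.000319). TEK, the angiopoietin receptor, was called only in D4 (0.38, adjusted p 0.0286), and differed by 0.26 in D3 and 0.09 in A3. Its means of 5.71 in D4 and 5.33 in wt control tumours lie under 6.01, the limit of the dimmest 30% of genes. FLT1 lies there too, at 3.80 in D4 and 3.71 in wt control tumours. With no detection call, neither TEK nor FLT1 is shown to be above background. FLT1, FLT4, NRP1 and TIE1 were called in none of the 3. FLT1 differed by 0.09, -0.21 and -0.04, FLT4 by 0.29, 0.05 and 0.16, NRP1 by 0.07, 0.07 and 0.04, and TIE1 by 0.02, 0.18 and 0.11, in D4, D3 and A3. With CPA 0 of the 7 were called in each line (limma), against 1.03%, 0.231%, 0.352% and 0.0462% of all genes in D4, D3, A3 and wt. Of 13 measured relatives of the members, THBS3, another thrombospondin, fell and FGF5, a fibroblast growth factor, rose in all 3 clones. THBS3 differed by -0.78, -0.59 and -0.56 and FGF5 by 0.61, 0.62 and 0.56 in D4, D3 and A3. All 6 passed the test. The other 11 relatives were called in none of these 3 comparisons. Of all genes, 20.1%, 18.1% and 18.5% were called against wt in D4, D3 and A3 control tumours. Calls among the 13 relatives were no more frequent than that.

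Genes known to be induced by low oxygen, as VEGFA and ANGPTL4 are, were lower in each clone than in wt where they were called. Of 19 measured genes, none of them a member, 5, 13 and 10 fell against wt in D4, D3 and A3 control tumours and 0 rose, with median log2 differences of -0.36, -0.79 and -0.58 beside medians over all genes of 0.05, 0.01 and 0.04. P4HA1, a subunit of collagen prolyl hydroxylase, fell (log2 differences -0.73, -0.85 and -0.78), and the histone demethylase KDM3A fell (log2 differences -0.70, -0.92 and -0.71). The shares of all genes called lower were 10.9%, 8.40% and 8.36%. In CPA-treated tumours 10, 11 and 3 of the 19 were lower than wt in D4, D3 and A3, where 7.59%, 10.1% and 9.60% of all genes were. The control arrays gave mean levels of the 19 genes of 8.39 to 8.80 over the D4 arrays, 8.17 to 8.59 in D3 and 8.32 to 8.66 in A3, against 8.84 to 9.42 in wt. The treated arrays gave 8.10 to 8.54 in D4, 8.10 to 8.37 in D3 and 8.36 to 8.99 in A3, against 8.72 to 9.02 in wt. Where ANGPTL4 was lower with CPA in D4 but not called, the 19 genes had a median difference of -0.24 with 0 called. The part of low oxygen in the VEGFA and ANGPTL4 differences was not tested.

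**Figure D4:**
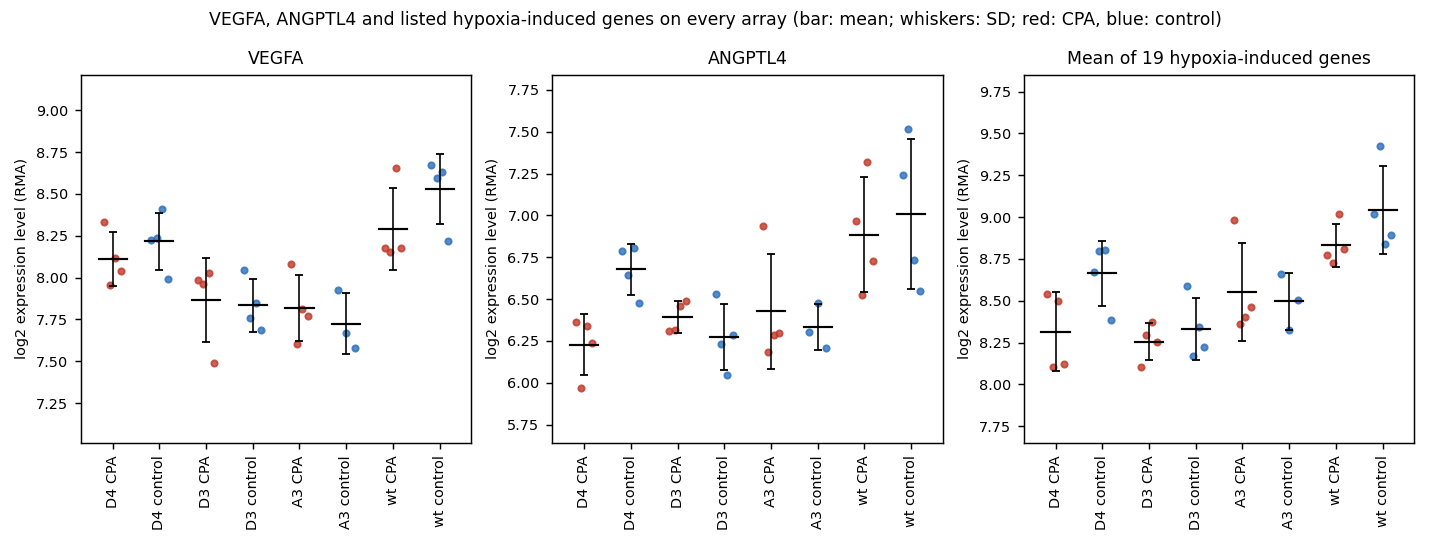
Log2 expression level (RMA, vertical axes of equal height) of VEGFA and ANGPTL4, and the mean of 19 listed hypoxia-induced genes, on every array in the 8 groups. Dots are arrays, bars means and whiskers SD. In all 3 panels the wt means are the highest, and the D4 control mean lies above the D3 control mean.

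In the remaining lists, counts stand beside all-gene shares called higher of 9.22% in D4, 9.69% in D3 and 10.1% in A3, and called lower of 10.9%, 8.40% and 8.36%. Of 13 thrombospondin receptors and TGF-beta pathway genes, 4, 2 and 1 rose and 2, 2 and 2 fell against wt in D4, D3 and A3 control tumours. The growth factor TGFB2 rose by 0.89 in D4 and 0.61 in D3, CCN1, a matrix protein, rose by 0.76, 0.63 and 0.38 in D4, D3 and A3, and the integrin subunit ITGAV fell (log2 differences -0.81, -0.63 and -0.84). Of 19 other endogenous inhibitors of vessel growth 4, 4 and 2 rose and 3, 3 and 3 fell. SPARC, a matrix protein, fell (log2 differences -1.66, -1.88 and -2.07), and PTX3, which binds FGF2, rose by 1.18, 0.97 and 0.58. Of 19 other angiogenic factors 2, 4 and 3 rose and 2, 2 and 2 fell. PLAU, the urokinase gene, rose by 0.59, 0.51 and 0.83, and PDGFD, a platelet-derived growth factor, fell in D4 (-1.17) and D3 (-0.91). Of 8 FGF receptors and heparan sulfate proteoglycans 1, 0 and 2 rose and 0 fell, with FGFR1 up by 0.32 in D4 and 0.33 in A3.

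In bulk tumour RNA, fewer cells of a type and less RNA per cell cannot be told apart, and a human array can bind RNA of host cells. The mean level of 14 endothelial markers, KDR included, was 6.24 to 6.45 in D4, 6.25 to 6.34 in D3 and 6.24 to 6.45 in A3, against 6.23 to 6.43 in wt control tumours. KDR itself averaged 7.80 in D4, 8.53 in D3 and 8.35 in A3, against 9.54 in wt control tumours. Its fall enters this mean, so the similar means do not show that the other markers were unchanged. A mean without KDR was not taken. Of the 14, 2, 0 and 2 were called higher and 1, 1 and 2 lower than wt in D4, D3 and A3, KDR among the lower in each. Of all genes, 9.22%, 9.69% and 10.1% were called higher and 10.9%, 8.40% and 8.36% lower. With CPA the mean of the 14 was 6.22 to 6.27 in D4, 6.31 to 6.48 in D3 and 6.40 to 6.47 in A3, against 6.28 to 6.33 in wt. Between treated and control tumours 0 of 14 were called in each line (limma), against 1.03%, 0.231%, 0.352% and 0.0462% of all genes in D4, D3, A3 and wt. The mean of 10 fibroblast markers in control tumours was 6.79 to 6.98 in D4, 6.92 to 7.02 in D3 and 6.71 to 6.90 in A3, against 6.83 to 6.93 in wt, and that of 8 pericyte and smooth muscle markers was 6.22 to 6.44, 6.20 to 6.33 and 6.20 to 6.30, against 6.02 to 6.23. Of 6 platelet markers, 8 myeloid markers and 3 erythroid markers, at most 2 of a list were called in control tumours of any clone against wt. Of all genes, 20.1%, 18.1% and 18.5% were called there in D4, D3 and A3. The mean levels of these 3 lists lay under 6.01 in every group, the limit of the dimmest 30% of genes. These counts are therefore not read as a lack of change. For lists of 3, 6 and 8 genes, such a shared ceiling cannot be set above or below those all-gene shares either. The part of host cells in the member differences was not tested. Of 8 markers of PC3 carcinoma cells, which include keratins and EPCAM, the mean level was at 10.08 to 10.23 in D4, 10.18 to 10.24 in D3 and 10.03 to 10.14 in A3, against 10.07 to 10.16 in wt control tumours. KLK3, the gene of prostate-specific antigen, which PC3 cells are known to lack, had group means below 6.01, the limit of the dimmest 30% of genes, in all 8 groups.

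For the 4 members with the widest spans the 3 most similar genes were taken by Pearson correlation over the 31 arrays, which share the 8 group means, so that the values are descriptions. For ANGPT1 these were TET1 (0.93, and 0.71 within groups), SEMA3D (0.93, and 0.67 within groups) and IFI16 (0.91, and 0.69 within groups), where the second value is taken after each array's group mean was subtracted. For VEGFA they were TMEM45A (0.86, and 0.62 within groups), MILR1 (0.86, and 0.59 within groups) and STC2 (0.85, and 0.63 within groups). For ANGPTL4 they were DEPP1 (0.88, and 0.77 within groups), EPAS1 (0.86, and 0.78 within groups) and SPAG4 (0.85, and 0.74 within groups). For THBS2 they were ARPC5 (0.80, and 0.54 within groups), CCT3 (0.79, and 0.35 within groups) and XRCC6 (0.77, and 0.27 within groups). Among the members themselves VEGFA and ANGPTL4 were the most alike over the 31 arrays, with a correlation of 0.75, and 0.60 within groups. ANGPT1 and VEGFC followed at 0.67, but only 0.17 within groups, and THBS2 and PGF at 0.65, with 0.26 within groups. Within groups the most alike were VEGFA and VEGFB at 0.67, with 0.35 over the 31 arrays. Between the thrombospondins the correlation was -0.32 over the 31 arrays.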

How the data were processed

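Gene expression was read on Affymetrix Human Gene 1.0 ST arrays of tumour RNA, 31 arrays in 8 groups. The deposited values are log2 expression levels per probe set from the authors, and the submitters' processing notes name RMA as the method; the software, its version and the probe set definition are not given in the sources used here. Of 23989 probe sets, 17624 were annotated to 1 symbol, 411 to several and 5954 to none. Probe sets with several symbols or none were left out, 276 genes with more than 1 probe set were represented by the brightest (mean of the 31 arrays), and 17314 genes remained, of which 17290 matched a RefSeq gene ID on GRCh38.p14. Array medians ran from 6.59 to 6.73 and replicate arrays correlated at 0.985 to 0.997. No array was treated as a repeat of another, but these correlations do not show that the arrays come from separate animals. The number of arrays limits the precision, with an SE of 0.10 for the median gene between 4 and 4 arrays.

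All 19 planned comparisons, and 1 added after seeing the data (the mean CPA difference of the 4 lines), came from 1 limma fit (version 3.58.1, R 4.3.3) over 31 arrays with a mean per group, 23 residual degrees of freedom and Benjamini-Hochberg adjustment over 17314 genes. Calls required an adjusted p under 0.05. The 95% intervals are per gene and unadjusted. Tested on simulated data with independent normal noise and 200 of 17314 genes changed, the fit called 74.5% of genes changed by 0.5 and 100.0% of those changed by 1.0 (log2) for CPA in wt. For changes of 0.5 it called 71.0% for CPA in A3 and 67.5% for D3 against A3 in control tumours. In the real data fewer genes were called for CPA (8 in wt), which makes the adjustment stricter. The simulated shares may therefore be too high for the CPA comparisons. The alternatives were a fit restricted to the arrays of the comparison, a block for the replicate number, array weights, a further quantile normalization, median centring, leaving out the dimmest 30% of genes, the mean of all probe sets of a gene, and leaving out each array in turn. The members and the 15 lists of related genes and cell markers, with 153 of 178 genes measured, were chosen with earlier results of these data known. From each list the text names at most 3 called genes, by smallest p in the comparison described, and all receptors. Unmatched list genes were not analysed here.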

Additional observations from a re-analysis of the deposited data

Results flagged for a closer look

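In 70 groups of 4 arrays, 10 genes in 7 groups, 7 groups had an array far from the other 3, with a gap to its neighbour larger than Dixon's 95% critical value. Chance alone flags about 1 in 20 groups. For VEGFA, wt CPA replicate 3 read 8.65739, against 8.14994 to 8.17907 on the other wt CPA arrays, D3 CPA replicate 5 read 7.48842, against 7.9591 to 8.02959, and wt control replicate 4 read 8.21818, against 8.59546 to 8.67295. The first 2 of these arrays both widen the treated D3 against wt difference in VEGFA. It was -0.43 with all arrays, -0.30 without the first and -0.30 without the second, and was not called when either was left out. For THBS2, D3 CPA replicate 4 read 6.1161, against 6.31742 to 6.34233, and wt control replicate 1 read 5.97712, against 6.2547 to 6.29697. For VEGFB, D3 CPA replicate 4 read 8.64432, against 8.34705 to 8.39266. For ANGPTL4, A3 CPA replicate 1 read 6.93796, against 6.18545 to 6.29791, and A3 CPA tumours were called lower than wt CPA tumours without it.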

How the results depend on the processing

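Of 200 member differences, 10 genes in 20 comparisons, 30 were called, and 17 of these were called in every alternative, with none of the 30 changing sign. Of the 170 not called, 153 were called in no alternative and 45 changed sign in at least 1. In the 9 comparisons of CPA effects, 0 members were called under any alternative. With array weights the members called were 5 for D3 against wt and 4 for D3 against A3 in control tumours (3 and 0 in the reported fit), and 6 for D4 against A3 in treated tumours (3). With only the groups compared they were 2 for D4 against wt and 0 for D4 against A3 in control tumours (4 each). With a further quantile normalization there was 1 for D3 against A3 in control tumours and 1 in treated tumours (0 each). Without the dimmest 30% of genes, ANGPT1 and ANGPT2 among them, there was 1 for D3 against A3 in control tumours, 1 in treated tumours, and 5 for D4 against A3 in treated tumours (0, 0 and 3). Calls lost with only the groups compared were ANGPTL4 in A3 (adjusted p 0.0544), THBS1 (0.13) and THBS2 (0.122) in D4 against wt controls, VEGFA in treated D3 against wt (0.052), and all 4 in D4 against A3 controls (0.18 to 0.449). THBS2 in D4 against wt controls was also lost with array weights (0.066), VEGFC in D4 against A3 controls with a further quantile normalization (0.0883) or median centring (0.0661), THBS1 in treated D4 against A3 with a further quantile normalization (0.0663), and VEGFA in D4 against A3 controls with the mean of all probe sets (0.0502). Calls gained were THBS1 with array weights in D3 against wt controls (adjusted p 0.0195) and in D3 against A3 controls (0.00147), where PGF (0.033), ANGPT1 (0.00413) and FGF2 (0.0461) were gained too. VEGFC in D3 against wt controls passed with array weights (0.0315), a further quantile normalization (0.0114) or without the dimmest genes (0.0327). In treated D4 against A3, VEGFA (0.0479) and THBS2 (0.032) passed with array weights. The cause of these moves was not tested, except that leaving out the dimmest genes adjusts over 12120 genes. The replicate numbers are not shown to pair the samples: 84 same-numbered pairs of arrays in different groups had correlations of their deviations from -0.66 to 0.60, median 0.05, and 35 were over 0.1. The 336 differently numbered pairs from different groups had a median of -0.01. The 2 medians were not tested against each other. With the replicate number as a block, D4 against A3 in control tumours had 2 members called (4 reported), where THBS1 (adjusted p 0.059) and VEGFC (0.0547) did not pass. In D4 against wt control tumours THBS2 did not pass (0.0798), nor did ANGPTL4 in D3 against wt treated tumours (0.0855) and THBS1 in D4 against A3 treated tumours (0.0717), while VEGFA in D4 against A3 treated tumours did (0.0346). With 1 array left out, the members called were 4 to 5 in A3, 3 to 4 in D3 and 2 to 6 in D4 against wt in control tumours, 2 to 5, 2 to 4 and 2 to 3 in treated tumours, 0 to 1 in D3 against A3 in either treatment, and 0 to 3 in control and 2 to 5 in treated tumours in D4 against A3. Over these fits 50 of 231 calls were lost and 15 gained. Among all genes, array weights moved the number called to 177 for CPA in A3 (61 reported), 185 in D3 (40), 349 in D4 (178), 660 in the mean of lines (403), 1207 for D3 against A3 (393), 1644 for D4 against A3 (653) and 106 for D4 against D3 (56) in control tumours, and 4632 for D4 against A3 (2143) and 4028 for D4 against wt (2620) in treated tumours. With only the groups compared it moved to 2 for CPA in wt (8), 15 in A3 and 17 in D4, to 1882 for A3 against wt (3200), 1805 for D4 against wt (3482), 105 for D3 against A3, 67 for D4 against A3 and 22 for D4 against D3 in control tumours, and to 404 for D3 against A3 in treated tumours (787). The block gave 5 for CPA in wt (8). Leaving out 1 array gave 34 to 787 for CPA in D4 (178) and 24 to 39 in D3 (40). It gave 18 to 61 in A3 (61) and 3 to 10 in wt (8). The all-gene shares for CPA therefore depend on single arrays. The 1 gene whose CPA difference separated resistant from sensitive lines was not called with the block, with array weights or without the dimmest genes.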
